A study of Mus musculus with 46 samples.

Results

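The genes described here encode ribosomal proteins. They are the protein-coding genes of the GENCODE vM1 annotation (mouse build mm9) whose symbol is Rpl or Rps followed directly by a number, with the Rps6k kinases left out, plus Rplp0, Rplp1 and Rplp2. This rule found 138 of 22367 protein-coding genes. By their symbols, 75 were core ribosomal protein genes, 45 of the large subunit (Rpl) and 30 of the small subunit (Rps). A further 9 were named as paralogs or as a binding protein of another member, and 54 carried a pseudogene suffix although the annotation classed them as protein-coding; these are called retrocopies. The split into these classes was made after the data had been seen.

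Ribosomes are built from ribosomal RNA and ribosomal proteins, and growing cells make the proteins from a set of short genes that are transcribed at high rates in nearly every cell type. H3.3 is the histone variant that is placed on chromatin outside of DNA replication, mostly where genes are active. H3K4me3 (trimethylation of lysine 4 on histone H3) marks active start sites, and H3K36me3 (trimethylation of lysine 36) is laid down behind elongating polymerase and accumulates towards the ends of transcribed genes.

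H3.3 was profiled by ChIP-Seq while mouse embryonic fibroblasts (MEFs) carrying GFP at Oct4 were turned into induced pluripotent stem cells (iPSCs) through retroviruses for OSKM (Oct4, Sox2, Klf4 and c-Myc). D0 and D3 were unsorted cells. Cells on the successful route were sorted for loss of Thy-1 (T) on days 6 and 9, giving D6T- and D9T-, and for gain of SSEA-1 (S) on days 12 and 16, giving D12S+ and D16S+. Their counterparts, D6T+ and D9T+ and then D12S- and D16S-, made up the unsuccessful route. The iPSCs and the embryonic stem cell line ESD3 completed the 12 libraries. A second conversion, of MEFs to hematopoietic cells by Scl, Lmo2, Runx1 and Bmi1, gave 4 more H3.3 libraries: MEF, D4 (day 4), cKit+ and cKit- cells. H3K4me3 and H3K36me3 were profiled in D0, D3, D6T-, D9T-, D12S+, D16S+ and iPSCs. With 1 library in each group, replicate error is unknown for every value. Of 6 fibroblast markers, 6 had an H3.3 peak in D0 (summed score 3048) and 1 in iPSCs, and of 6 pluripotency markers 3 had one in D0 (57.9) and 6 in iPSCs (2682). For the cKit+ cells the markers did not separate the groups: 3 of 5 hematopoietic markers had an H3.3 peak there (summed score 50.0), and the same number had one in MEF (48.8) and D0 (164).

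The libraries held between 13.2 and 91.8 M tags. Among H3.3 libraries, cKit+ had the lowest share of tags in peaks (1.65%) and D4 the highest (37.2%). For H3K4me3 the extremes were D16S+ (3.71%) and D6T- (34.8%), and for H3K36me3 they were D12S+ (1.07%) and D9T- (42.4%). A gene was counted as carrying a mark when a peak of that library overlapped its window, the gene span with 1 kb on each side. Density was the tag count of the peaks inside the window, per 10 M tags of the library and per kb of window, so that genes of different lengths could be compared. Since tags outside of peaks were not counted, a library with few tags in peaks gives low densities.

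The core genes were short, with a median span of 3.23 kb against 15.4 kb for all protein-coding genes, and they lay on 19 chromosomes, with 4 on the X chromosome. Their promoters come first. In the counts of marks, a start site is the GENCODE 5′ end of the gene and not the RefSeq start. Of the 75 core genes, 54 had an entry in the RefSeq promoter table (GRCm38.p6), and each of these 54 sequences matched mm9 at a single position, 43 of them within 100 bp of the GENCODE 5′ end used below. Ribosomal protein transcripts are known for the 5′ terminal oligopyrimidine (TOP) motif, a C followed by a run of pyrimidines at the first base, through which their translation is regulated. The first 5 bases from the RefSeq start were a C and 4 pyrimidines in 13 of 54 core promoters (24.1%) and in 3.01% of all promoters in the table. It was found in 0 of 67 promoters of mitochondrial ribosomal protein genes (Mrpl and Mrps, whose products form the ribosome inside mitochondria). This rule takes the RefSeq start as exact to the base, so a tract beginning a few bases away was not counted. The longest run of pyrimidines near the start had a median of 8.5 bases in core promoters. It was 5 in mitochondrial ribosomal promoters and 5 in all promoters. The 4 promoters that met the TOP rule among the genes chosen for description are shown with those of 3 paralogs that did not, from 60 bases before to 15 bases from the RefSeq start in mm9. Capitals mark the first 5 bases where they meet the TOP rule, and any of the motifs named in the next paragraph.
Rps6, chr4:86503257-86503331, minus strand: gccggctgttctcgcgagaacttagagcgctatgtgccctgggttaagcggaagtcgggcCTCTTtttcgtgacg
Rps18, chr17:34092596-34092670, minus strand: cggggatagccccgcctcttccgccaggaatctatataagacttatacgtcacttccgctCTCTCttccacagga
Rps27, chr3:90017556-90017630, minus strand: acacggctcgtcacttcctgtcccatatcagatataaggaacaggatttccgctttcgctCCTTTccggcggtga
Rplp2, chr7:148633490-148633564, plus strand: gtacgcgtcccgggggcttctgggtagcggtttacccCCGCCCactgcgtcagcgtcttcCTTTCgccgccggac
Rpl22l1, chr3:28704370-28704444, plus strand: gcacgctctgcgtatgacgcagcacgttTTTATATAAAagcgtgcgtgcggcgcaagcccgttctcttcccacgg
Rpl10l, chr12:67385374-67385448, minus strand: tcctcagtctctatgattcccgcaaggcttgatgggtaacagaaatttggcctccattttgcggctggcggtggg
Rpl3l, chr17:24864711-24864785, plus strand: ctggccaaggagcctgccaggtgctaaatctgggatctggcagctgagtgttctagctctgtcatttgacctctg

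Motifs were searched on both strands of the 300 bases from 250 before to 50 after the RefSeq start, and matches of different motifs were allowed to overlap. The Ets motif CCGGAAG was present in 21 of 54 core promoters (38.9%), in 35.8% of the mitochondrial ribosomal promoters and in 9.93% of all promoters. The YY1 motif AAGATGG was present in 16.7%, 19.4% and 7.28% of them, and the GC box GGGCGG in 59.3%, 49.3% and 38.2%. The E-box CACGTG was found in 11.1% of core and 8.09% of all promoters. The exact TATA box letters (TATAAA on the gene's own strand, from 40 to 16 bases before the start) were found in 0 of 54 core promoters and in 2.41% of all promoters. Near matches were not counted, such as the letters tatataag in the Rps18 sequence above. In the sequences above, the capitals in Rplp2 before the start are a GC box read on the other strand, and those in Rpl22l1 are overlapping TATA boxes on both strands. All of these matches are descriptions of letters and not of bound sites. The 4 core promoters shown had H3K4me3 over the start site in 7 of 7 libraries, as had Rpl22l1, whereas Rpl10l and Rpl3l each had it in 1 of 7.

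Every core gene carried H3.3 in 12 of the 16 H3.3 libraries (75 of 75, 95% Wilson interval 95.1 to 100%). Among all protein-coding genes, the share with an H3.3 peak in these 12 libraries was highest in D4 (72.1%), D12S- (63.5%), D0 (61.9%), iPSCs (61.2%) and D6T- (60.6%). It was intermediate in D9T- (58.3%), D3 (57.3%), D16S- (56.7%), D9T+ (55%) and D6T+ (53.1%), and lowest in D12S+ (50.2%) and D16S+ (43.4%). The 4 exceptions were ESD3 with 70 of 75 core genes (93.3%, against 52.1% of all genes), MEF with 74 (98.7%, against 53.3%), cKit+ with 53 (70.7%, interval 59.6 to 79.8%, against 33.2%) and cKit- with 49 (65.3%, 54.1 to 75.1%, against 31.8%). The 5 genes without H3.3 in ESD3 were Rpl7, Rpl10, Rpl39, Rps27 and Rps27a, and Rps27 was also the gene without a peak in MEF. Outside the cKit fractions, 70 of 75 core genes had H3.3 in all 14 libraries. In the cKit+ and cKit- libraries 1.65% and 2.31% of tags fell in peaks, the lowest shares among the H3.3 libraries, and the part of this in the missing genes was not tested. The count of core genes depended on the peak strength required, and a stricter rule was applied to the 12 reprogramming libraries. With peaks at least 4 times over input, 13 of 75 core genes kept an H3.3 peak in iPSCs (17.3%), below the 29.8% of all protein-coding genes. ESD3 kept 38 (50.7%, against 42.1%), D16S+ 45 (60%, against 34.4%) and D9T- 48 (64%, against 32.9%), and the other 8 libraries between 60 and 75.

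**Figure D1:**
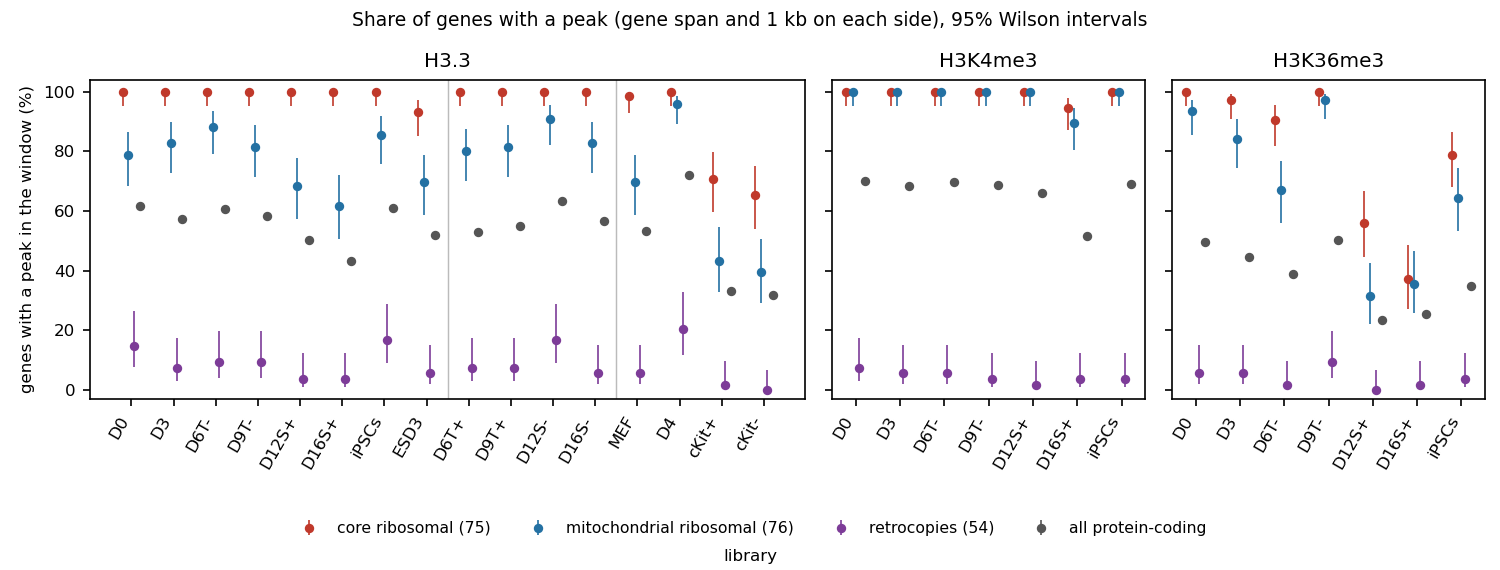
Percentage of genes (y axis) with a peak in their window in each library (x axis) for H3.3, H3K4me3 and H3K36me3; points are shares, bars are 95% Wilson intervals (counting error only), and grey lines separate the successful route with ESD3, the unsuccessful fractions and the transdifferentiation libraries. Core ribosomal protein genes sit at 100% in 12 of 16 H3.3 libraries and 6 of 7 H3K4me3 libraries, while retrocopies stay at 20.4% or below.

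Mitochondrial ribosomal protein genes lay between the core genes and the background for H3.3, with a median share of 80.9% over the 16 libraries and a range from 39.5 to 96.1%. Their H3K4me3 share did not separate from that of the core genes: 76 of 76 had a peak in 6 of 7 libraries and 89.5% in D16S+. Over all 138 members the median share was 61.6% for H3.3 (38.4 to 67.4%), 62.3% for H3K4me3 and 51.4% for H3K36me3, values that mix 75 core genes with 54 retrocopies that mostly carried no peak.

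H3K4me3 covered all 75 core genes in 6 of 7 libraries, against 70.2% of all genes in D0, 69.7% in D6T-, 69% in iPSCs, 68.6% in D9T-, 68.2% in D3 and 66% in D12S+. In D16S+ it covered 71 of 75 (94.7%, 87.1 to 97.9%) against 51.6% of all genes, and the missing genes were Rpl18, Rpl23a, Rpl35a and Rps29. D16S+ had the smallest share of H3K4me3 tags in peaks, 3.71%. A start site peak, within 500 bp of the 5′ end, was present in all 7 libraries for 69 of 75 core genes. The lowest count was 69 in D16S+, where 40.7% of all genes had such a peak, and in D3 it was 74, against 61.7%.

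H3K36me3 was found on 75 of 75 core genes in D0 (49.7% of all genes), 73 in D3 (44.6%), 68 in D6T- (38.8%) and 75 in D9T- (50.3%). The count was 42 of 75 in D12S+ (56%, 44.7 to 66.7%, against 23.5% of all genes), 28 in D16S+ (37.3%, 27.3 to 48.6%, against 25.6%) and 59 in iPSCs (78.7%, 68.1 to 86.4%, against 34.7%). In these 3 libraries only 1.07%, 1.99% and 2.88% of tags fell in H3K36me3 peaks, and the part of this in the lower counts was not tested. The fragment length that the peak caller took for D6T- was 444 bp, while in the other 6 libraries it lay between 120 and 158 bp. The 15 core genes with H3K36me3 in all 7 libraries included Rpl3, Rpl5, Rpl7, Rpl23, Rplp2, Rps7 and Rps14. Of the 38 core genes at or above the median length, 32 had H3K36me3 in iPSCs and 21 in D16S+, and of the 37 shorter genes 27 and 7 had it.

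The marks divided the core genes between their ends. H3K4me3 peaks covered 98.4% of the first 500 bp of the core genes (median of 7 libraries, range 86.3 to 100%) and 60.9% of the last 500 bp. H3.3 peaks were arranged the other way: they covered 19.2% of the first 500 bp (median of 16 libraries, range 0 to 95.7%), 69.2% of the bases from 1000 to 1500 bp, 92.5% of the last 500 bp and 94.4% of the 500 bp beyond the 3′ end. H3K36me3 covered 0.2% of the first 500 bp and 63.2% of the last 500 bp, and H3K36me3 start site peaks were rare. They lay on 3 of 75 core genes in iPSCs (0.724% of all genes), on 1 each in D0 (2.03%), D3 (1.22%), D6T- (0.814%) and D9T- (2.12%), and on 0 in D12S+ (0.197%) and D16S+ (0.246%). In all 16 H3.3 libraries the last 500 bp were covered more than the first 500 bp. The contrast was widest in D3, with 8.70% against 92.0%, and least in D4, with 95.7% against 98.7%. For all protein-coding genes, H3.3 covered 12.2% of the first and 14.5% of the last 500 bp (medians of 16 libraries), and for mitochondrial ribosomal protein genes 12.6% and 26.6%.

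Reads that mapped to more than 1 locus had been removed, which bears on genes with many retrocopies. Of all 32-base words in a core gene, a median of 84.7% occurred once in the genome, 69.7% in exons and 99.3% in introns. In the first 500 bp a mean of 90.6% of words were unique and in the last 500 bp 76.6%. The part of this in the cover by H3.3 peaks was not tested.

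**Figure D2:**
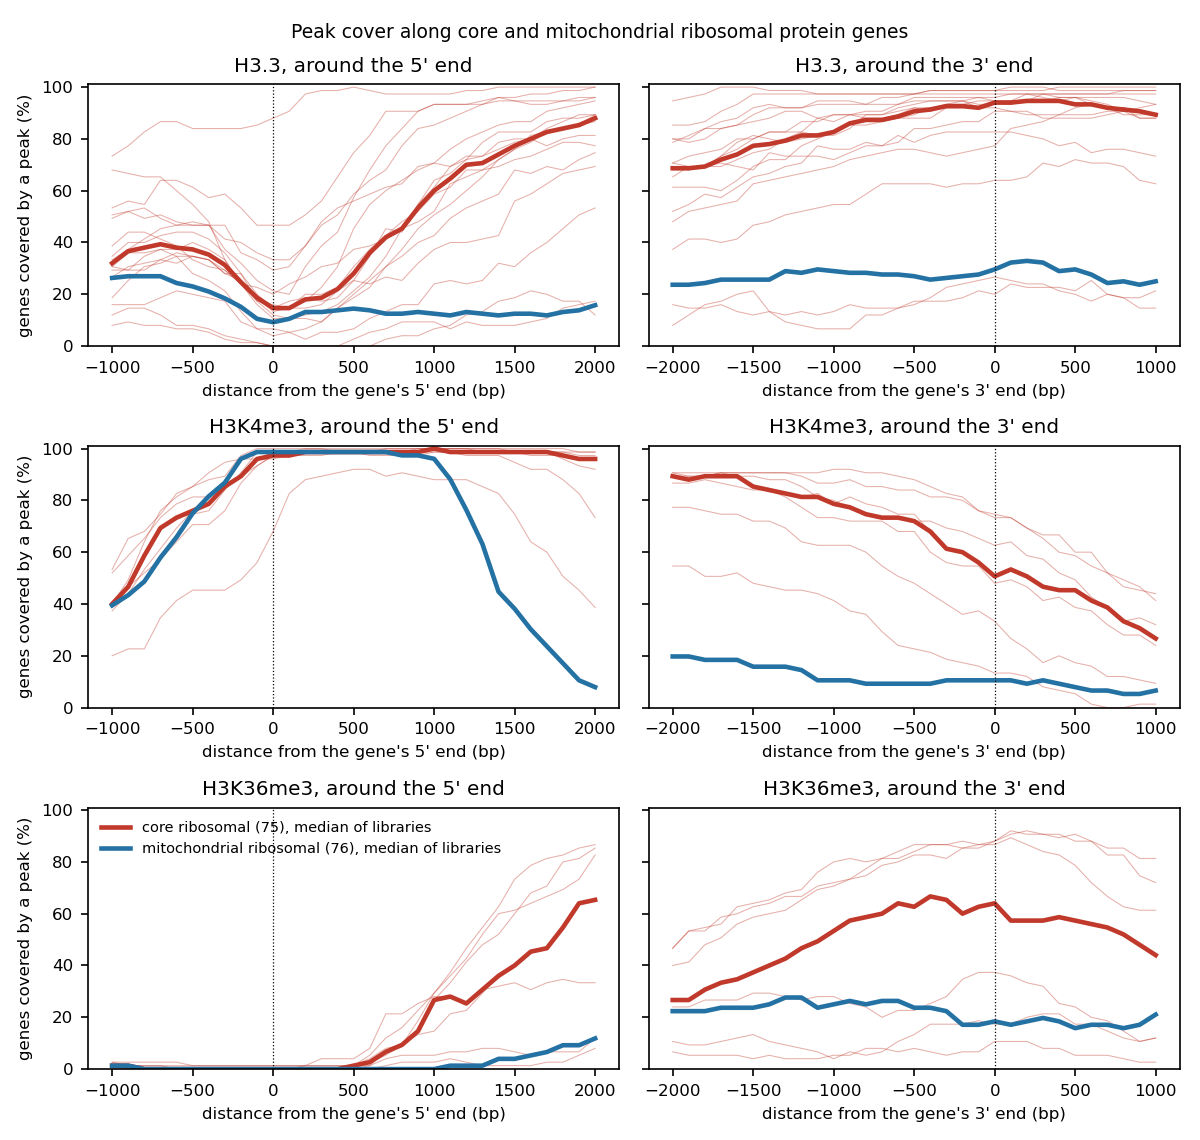
Percentage of genes covered by a peak (y axis) against distance in bp from the 5′ end (left) and from the 3′ end (right) for each mark; thin red lines are single libraries over the 75 core genes, and thick lines are medians over libraries for core (red) and mitochondrial ribosomal protein genes (blue). H3.3 dips at the 5′ end of core genes and stays high through the 3′ end, H3K4me3 starts at the 5′ end and runs further into core than into mitochondrial ribosomal protein genes, and H3K36me3 appears from about 500 bp onwards.

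H3K4me3 extended further into the core genes than into the mitochondrial ribosomal protein genes. It covered 98.7% of the bases from 1000 to 1500 bp in the core genes and 69.0% in the mitochondrial set, and 60.9% against 11.0% of the last 500 bp (medians of 7 libraries). Since the core genes are shorter (median 3.23 against 7.73 kb), their last 500 bp also lie nearer to the start. A single H3K4me3 peak held at least 90% of the gene span in 47 of 75 core genes in D0 (62.7%), 58 in D6T- (77.3%) and 63 in iPSCs (84%), but in 11 in D16S+ (14.7%). Among the other protein-coding genes of 1 to 10 kb the share was 7.15% in D0, 7.30% in D6T-, 4.67% in iPSCs and 0.580% in D16S+. These shares take in genes without an H3K4me3 peak. Among other genes within the quartiles of core gene length that had a peak, it was 15.8%, 16.1%, 6.95% and 1.02% in the same libraries. The widest cover in D0 was over Rpl24 with 10.8 kb, Rps15a with 7.47 kb and Rpl18 with 7.15 kb of H3K4me3 peaks. Rpl24 and Rpl11 are annotated with long spans, 42.6 and 25.2 kb, so their densities below are averaged over more sequence than those of the other members.

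In D0, 65.8% of the bases in core gene windows lay in H3.3 peaks, 68.1% in H3K4me3 peaks and 53.7% in H3K36me3 peaks, and 30.5% lay in all 3. The same values for the mitochondrial ribosomal protein genes were 21.8%, 17.0%, 29.7% and 0.702%. In iPSCs 58.5% of core window bases were in H3.3 peaks and 73.7% in H3K4me3 peaks, with 19.2% in H3K36me3 peaks. Of the H3.3 bases in core windows, 79.3% were shared with H3K4me3 in iPSCs, 68.0% in D0 and 36.3% in D16S+.

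H3.3 over the start site varied widely between libraries in the core genes, from 5 to 75 of 75. On the successful route it was most frequent in D6T-, on 60 of 75 core genes (30.9% of all genes), D9T-, on 58 (32%), and iPSCs, on 50 (38.8%). It lay on 40 in D16S+ (17.1%), 38 in D0 (34.1%), 37 in D12S+ (22.4%), 31 in D3 (23.5%) and 17 in ESD3 (16.6%). On the unsuccessful route D12S- had 67 (40.5%), D9T+ 53 (25.2%), D16S- 53 (30.7%) and D6T+ 40 (20.4%). Successful fractions therefore had more start site peaks than the unsuccessful ones on days 6 and 9, by 26.7 and 6.67 percentage points, and fewer on days 12 and 16, by 40 and 17.3 points. All protein-coding genes differed in the same directions, by 10.5, 6.84, 18.2 and 13.6 points. So did the share of H3.3 tags in peaks. It was 19.3% in D6T- against 10.9% in D6T+, and 14.8% in D9T- against 12.1% in D9T+. Later it was 6.93% in D12S+ against 22.0% in D12S-, and 4.88% in D16S+ against 12.2% in D16S-. The part of this in the differences between the routes was not tested. In transdifferentiation the counts were 36 in MEF (28%), 75 in D4 (58.4%), 5 in cKit+ (3.32%) and 8 in cKit- (4.89%).

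The share of core genes with H3.3 anywhere in the window could not differ between the routes, since all 75 had a peak in both fractions on each of the 4 days. Over all protein-coding genes the successful share was above the unsuccessful one by 7.56 percentage points on day 6 and 3.37 on day 9, and the difference was -13.2 on day 12 and -13.3 on day 16. With peaks at least 4 times over input, the successful share minus the unsuccessful share averaged -12.7 points in core genes and -8.51 in members. In core genes the shares were 100% in D6T- against 92% in D6T+, and 64% in D9T- against 90.7% in D9T+. Later they were 82.7% in D12S+ against 94.7% in D12S-, and 60% in D16S+ against 80% in D16S-. All protein-coding genes differed in the same directions at this strength. Their shares were 50.2% against 47.0% on day 6 and 32.9% against 45.7% on day 9. On day 12 they were 40.7% against 52.3%, and on day 16 34.4% against 48.5%. Over all 138 members the successful share minus the unsuccessful share averaged -1.99 percentage points (exact permutation test by sign flips over the 4 days, two-sided, p = 0.5, and the smallest p this design allows is that of 2 in 16 sign assignments, so it cannot reach significance), and it was higher on 0 days, equal on 2 and lower on 2.

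The core genes were among the densest H3.3 genes in every reprogramming library. Their median density was highest in D6T- with 20.2 tags per 10 M per kb, D12S- with 19.0 and D9T- with 17.2. It was 15.2 in D9T+, 14.7 in D16S-, 13.7 in D6T+, 13.1 in D12S+, 12.8 in D0, 12.4 in D16S+ and 12.2 in D3, and lowest in iPSCs with 10.1 and ESD3 with 6.87. These medians stood at the 95.3rd to the 98.5th percentile of all genes with a peak in the same library, and at 2.60 to 5.56 times the median of the other protein-coding genes of 1 to 10 kb with a peak. Density is not divided by input. Peaks on core genes were longer, with a median of 5484.5 against 783 bp for all peaks in D0. Their median fold over input was below that of all peaks in iPSCs (3.14 against 3.25), D16S+ (3.82 against 4.41), ESD3 (3.975 against 4.25) and D16S- (4.255 against 4.3). In the other reprogramming libraries it was above, most in D6T- (5.48 against 3.92). In MEF the core median density was 9.29 and in D4 18.9, while in cKit+ it was 0.871 and in cKit- 1.29. The cKit medians take in the 22 and 26 core genes without a peak, at 0. Over the 53 and 49 core genes with a peak the medians were 1.51 and 2.09, at 1.88 and 1.71 times the median of the other genes of 1 to 10 kb with a peak. For H3K4me3 the core median was 89.9 in D6T-, 57.6 in D9T-, 57.2 in D3, 54.6 in D0, 38.0 in iPSCs, 23.5 in D12S+ and 12.9 in D16S+, at the 97.9th to the 99.6th percentile of genes with a peak. For H3K36me3 it was 17.5 in D9T-, 13.8 in D0, 11.0 in D3, 8.26 in D6T-, 2.81 in iPSCs and 0.771 in D12S+. In D16S+ it was 0, where 28 of 75 core genes had a peak.

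**Figure D3:**
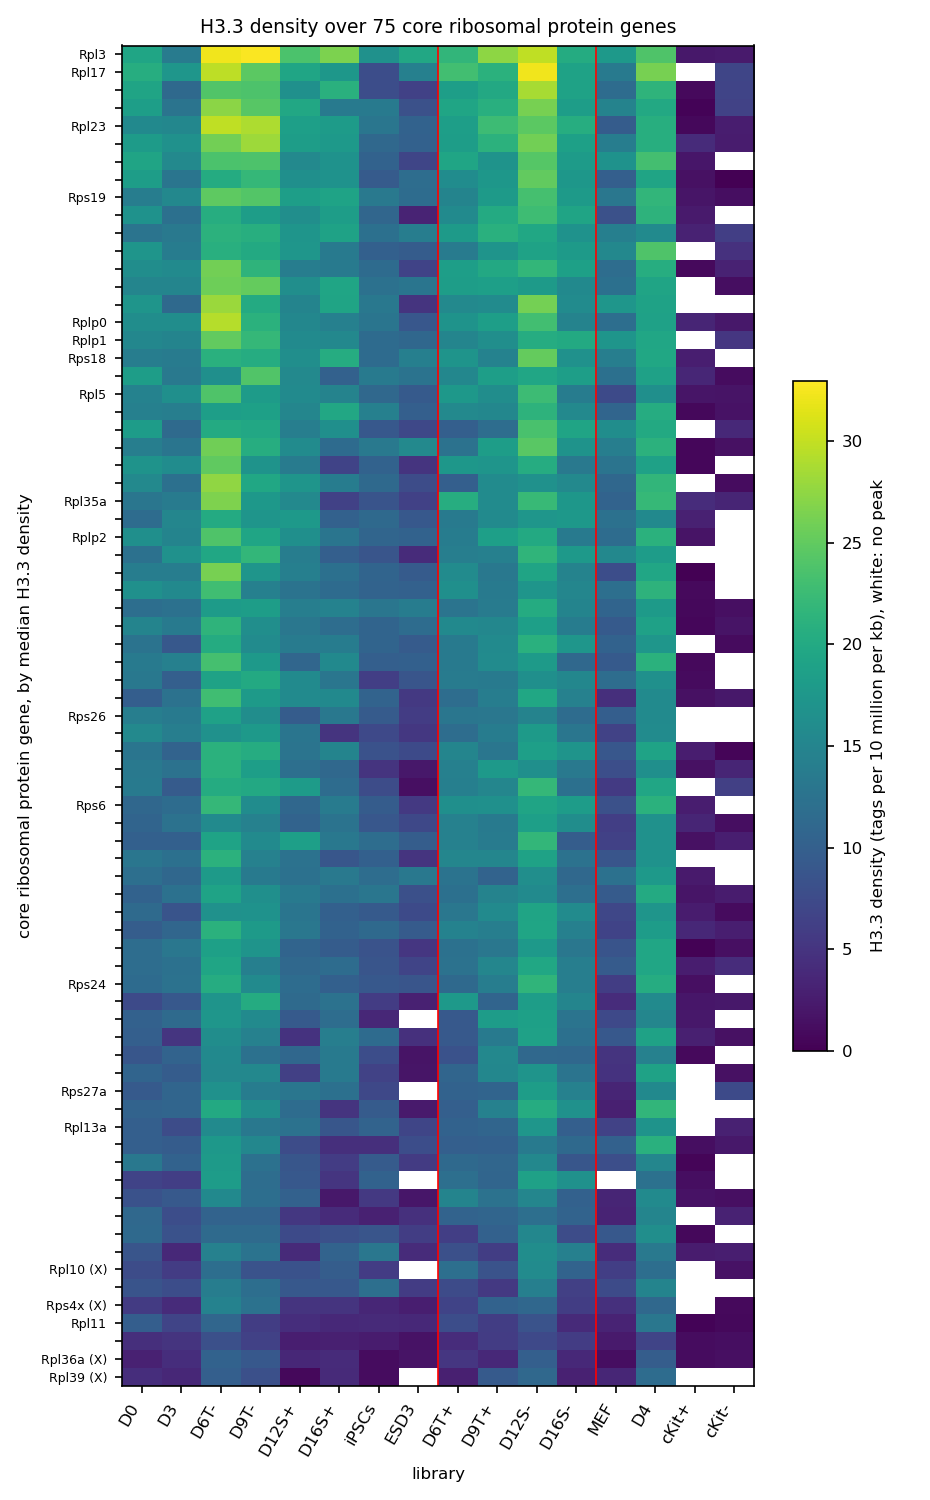
H3.3 density (colour, tags per 10 M per kb) of the 75 core genes (rows, from the highest to the lowest median over 16 libraries) in each H3.3 library (columns); white cells have no peak, red lines separate the successful route with ESD3, the unsuccessful fractions and transdifferentiation, gene names are given for the rows described by role, for Rpl3 and Rpl17 and for genes on the X chromosome (X). Columns differ more than most rows: D6T-, D9T-, D12S- and D4 are high for nearly all genes, cKit+ and cKit- are low, and the X-linked genes lie near the bottom.

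The highest median H3.3 density belonged to Rpl3, a large subunit protein near the catalytic centre (chr15:79908211-79913836). Its density was 32.8 in D9T-, 32.3 in D6T-, 26.5 in D16S+, 23.7 in D12S+, 19.8 in ESD3, 19.4 in D0, 16.7 in iPSCs and 13.7 in D3. On the other route it was 29.9 in D12S-, 27.3 in D9T+, 21.7 in D6T+ and 20.3 in D16S-, and in transdifferentiation 17.7 in MEF, 23.9 in D4, 2.12 in cKit+ and 2.40 in cKit-. Rpl17 and Rps12 followed with medians of 19.2 and 18.8, against 21.0 for Rpl3, and the ranges of these 3 genes over the libraries overlap nearly in full. Rpl3 was also high in H3K4me3, with 122 in D6T- and 62.7 in D0, and had an H3K36me3 density of 24.3 in D0 and 0.999 in iPSCs. At the other end Rpl39 had the lowest median, 3.60.

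The acidic stalk of the large subunit recruits elongation factors and is built from Rplp0, Rplp1 and Rplp2. The 3 genes had nearly equal median H3.3 densities over the 16 libraries, 15.7, 15.6 and 14.4. Rplp1 lacked a peak in cKit+ and Rplp2 in cKit-. Their start sites differed more: H3.3 lay over the start of Rplp1 in 14 libraries, of Rplp2 in 8 and of Rplp0 in 4.

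Rpl5, Rpl11 and Rpl23 can bind Mdm2, the ubiquitin ligase that restrains p53. Rpl23 had an H3.3 density of 15.6 in D0, 29.9 in D6T-, 29.0 in D9T- and 10.3 in ESD3, and Rpl5 had 14.7, 24.0, 18.2 and 9.36. Rpl11 had 9.85, 10.9, 5.98 and 3.74 in the same libraries, averaged over its long span. All 3 carried H3.3 in 16 of 16 libraries and H3K4me3 in 7 of 7, and their H3K36me3 was present in 7, 5 and 7 libraries in the order Rpl5, Rpl11 and Rpl23.

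Rps19, Rps24, Rps26 and Rpl35a are genes in which loss of 1 copy causes Diamond-Blackfan anemia, a failure of red cell production. In D0 their H3.3 densities were 14.0, 11.5, 14.1 and 12.9, and in D4, the intermediate of the hematopoietic conversion, 21.7, 20.4, 15.7 and 22.1. In cKit+ cells Rpl35a had 4.24, the highest value of any core gene in that library, Rps19 had 1.92, Rps24 had 1.41 and Rps26 had no peak. Rps6, the substrate of the S6 kinases, had 11.0 in D0, 22.0 in D6T- and 9.64 in iPSCs. Rpl13a and Rps18, both used as reference genes in expression assays, had 10.0 and 14.0 in D0 and 10.5 and 11.5 in iPSCs. Rps27a, which is made as a fusion with ubiquitin, had no H3.3 peak in ESD3 and cKit+ and 7.36 in cKit-.

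The 4 X-linked core genes, Rps4x, Rpl10, Rpl36a and Rpl39, had lower densities than the 71 autosomal ones. Their H3.3 median was 5.03 against 12.9 in D0, 11.1 against 20.3 in D6T- and 2.33 against 10.4 in iPSCs, and it was the lower of the 2 in 16 of 16 libraries. The X to autosome ratio was 0.404 in the median library for H3.3 and 0.669 for H3K4me3, lower in 7 of 7 libraries. Other X-linked genes of 1 to 10 kb with a peak showed the same order, with median ratios of 0.447 for H3.3 and 0.618 for H3K4me3. A lower level of these 2 marks was thus shared with other short genes of that chromosome. The sizes are not strictly comparable, since the core ratios rest on 4 X-linked genes and take in genes without a peak, at 0. For H3K36me3 the median ratio was 0.184 in the core genes and 0.581 in the other X-linked genes. The small to large subunit ratio of median densities was 0.964 for H3.3 in the median library, with the small subunit higher in 7 of 16, and 1.06 for H3K4me3, with the small subunit higher in 7 of 7.

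From D0 to iPSCs the core genes had a median log2 H3.3 density ratio of -0.43 (75 genes), close to the -0.47 of all genes with a peak in both. It was -0.29 for the other genes of 1 to 10 kb and -0.28 for mitochondrial ribosomal protein genes. For the other genes in the top 5% of H3.3 density in D0, a group chosen after the data had been seen, it was -0.94. Here and below, such groups were picked by density in the library that the ratio is divided by, which tends to lower their ratios. The core genes were picked by symbol, so these groups are not matched to them. None of the 75 was higher by 2-fold or more, against 16.2% of all genes, and 12 were lower by 2-fold or more, against 35.4%. The lowest ratios belonged to Rpl39 (4.37 in D0 and 1.14 in iPSCs, log2 ratio -1.93), Rps23 (11.2 and 3.08, -1.86), Rpl7 (10.2 and 3.64, -1.49) and Rps20 (13.3 and 4.90, -1.44). Rps27 (6.70 and 10.4, 0.63), Rpl36 (8.74 and 13.1, 0.58) and Rpl38 (10.4 and 12.9, 0.31) were among the highest. Rpl38 is known for its part in the selective translation of Hox transcripts. With the gene span alone the core median was -0.60 against -0.52 for all genes, and with the whole score of each peak -0.71 against -0.53, so whether the core genes stood above or below all genes in H3.3 depended on the window, on how peaks were scored and on the peak strength required. With peaks at least 4 times over input it was -2.56 over 11 core genes, against -1.92 for all genes.

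H3K4me3 was different. The core median from D0 to iPSCs was -0.52, against -1.34 for all genes and -1.15 for mitochondrial ribosomal protein genes. All 75 core genes lay above the median of all genes, and 2 (Rpl29, from 64.7 to 29.5, and Rps23, from 59.4 to 27.4) were lower by 2-fold or more, against 71.3% of all genes. The 719 other genes in the top 5% of H3K4me3 density in D0 had a median density of 50.8 there, near the 54.6 of the core genes. The median log2 ratio of these 719 genes was -1.39. This group was chosen after the data had been seen. It was picked by its D0 density, which tends to lower its ratio, so it is not a matched control for the core genes. For H3K36me3 the median was -1.86 over the 59 core genes with a peak in both, against -3.01 for all genes, and 44 of 59 were lower by 2-fold or more, against 89.9% of all genes. Other short genes lay closer to the core genes. The other genes of 1 to 10 kb had a median of -2.07, with 961 of 1189 lower by 2-fold or more. Mitochondrial ribosomal protein genes also had -2.07, with 38 of 48. The lowest H3K36me3 ratio, -9.86 for Rpl29, came from a peak that only touched the edge of the window in iPSCs. The share of tags in peaks was lower in iPSCs than in D0 for each mark: H3.3 had 14.0% against 19.1%, H3K4me3 12.7% against 30.4% and H3K36me3 2.88% against 31.3%, and the part of this in the ratios was not tested.

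**Figure D4:**
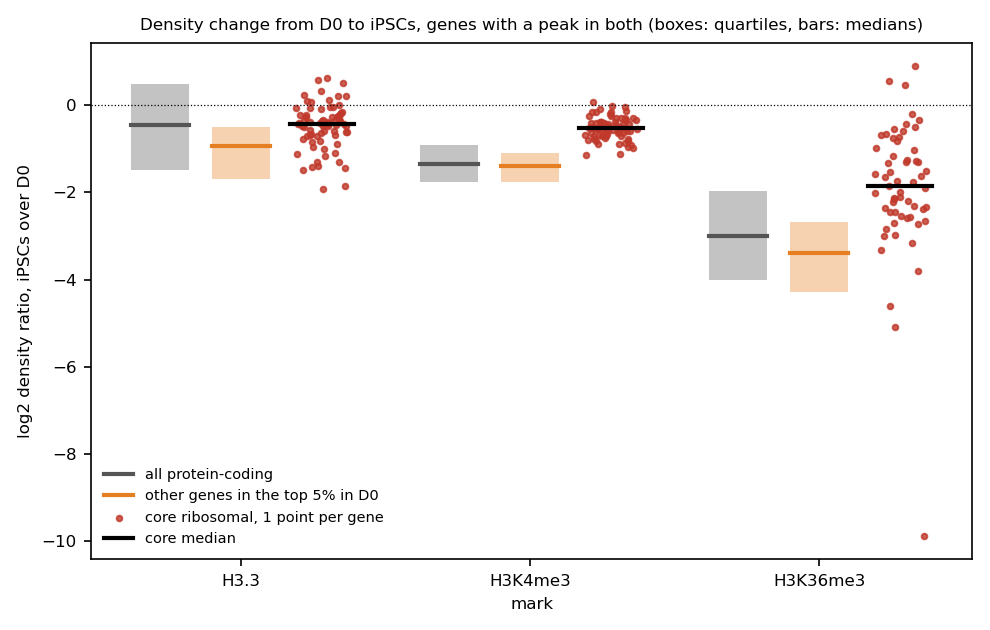
Log2 ratio of density in iPSCs over D0 (y axis) for each mark (x axis); grey and orange boxes span the quartiles, with the median as a bar, of all protein-coding genes and of the other genes in the top 5% of density in D0, and red points are single core genes with a black median. The core median lies inside the grey box for H3.3 and above both boxes for H3K4me3, where 2 core genes are below -1.

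On day 6 the core genes were higher in H3.3 and H3K4me3 than in D0, a comparison that shares the D0 libraries with the one above. The median log2 ratio of D6T- over D0 was 0.70 for H3.3, against 0.21 for all genes and 0.03 for the 650 other genes in the top 5% in D0, and 9 of 75 core genes were higher by 2-fold or more (22.8% of all genes). Rpl36a (log2 ratio 1.79), Rps27 (1.45) and Rps4x (1.37) had the highest ratios. For H3K4me3 it was 0.70 against 0.22 for all genes, with ratios from 0.41 to 1.12 and all 75 above the median of all genes. H3K36me3 ran the other way, at -0.85 over 68 core genes against -1.85 for all genes, in the D6T- library with the long fragment estimate. From D0 to D3 the core medians were -0.09 (H3.3), 0.08 (H3K4me3) and -0.30 (H3K36me3), and those of all genes -0.54, -0.32 and -1.11.

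Set against their counterparts of the same day, the late successful fractions had H3.3 ratios nearer to 0 in the core genes than in all genes. D12S+ was below D12S- by a median log2 ratio of -0.59, against -1.56 for all genes, and 11 of 75 core genes were lower by 2-fold or more, against 71.3% of all genes. D16S+ over D16S- gave -0.19, against -1.33, and 8 of 75 were lower by 2-fold or more, against 59.9%. Rpl39 had the lowest ratio on day 12 (-4.00) and Rpl15 on day 16 (-2.30). The other genes in the top 5% of the unsuccessful fraction had medians of -0.99 and -1.23. The share of tags in peaks was 6.93% in D12S+ against 22.0% in D12S-, and 4.88% in D16S+ against 12.2% in D16S-. The part of this in the ratios was not tested. On the early days D6T- over D6T+ gave 0.54 in the core genes and 0.79 in all genes, and D9T- over D9T+ gave 0.23 and 0.27. ESD3 over iPSCs gave -0.34 in 70 core genes and -0.83 in all genes, with 14 core genes lower by 2-fold or more (43.4% of all genes).

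In transdifferentiation the core genes had a median log2 ratio of D4 over MEF of 1.02 (74 genes), smaller than the 2.31 of all genes, and 38 of 74 were higher by 2-fold or more, against 90.3%. The 546 other genes in the top 5% in MEF had a median of 0.78, also below that of all genes. Rpl36a (2.99), Rps16 (2.90) and Rps23 (2.21) had the highest ratios. In D4 peaks covered the whole window in 48 of 75 core genes (64%), against 4 in MEF (5.33%), and in 6.41% and 0.241% of all protein-coding genes. D4 had 37.2% of tags in peaks and MEF 7.64%, and the part of this in the difference was not tested. In cKit+ over MEF, which shares the MEF library, the 52 core genes with a peak in both had a median of -2.38, against -1.60 for all genes, and 48 were lower by 2-fold or more (63.8% of all genes). The other genes in the top 5% in MEF fell further, with a median of -3.14 over the 328 with a peak in both. For the other genes of 1 to 10 kb it was -2.02.

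The paralogs differed widely in H3.3. Rpl7l1, the only paralog with H3.3 in all 16 libraries, had a median density of 14.6, against 10.8 for its parent Rpl7, which had no peak in ESD3 and cKit-. Rpl22l1 had 6.30 in D0 and 15.1 in D6T- but no H3.3 peak in iPSCs, ESD3 and cKit-, while its parent Rpl22 had 13.2, 18.0, 9.42 and 5.74 in D0, D6T-, iPSCs and ESD3 and no peak in cKit-. Rpl36al and Rps27l carried H3.3 in 12 and 14 libraries and H3K4me3 in 7 of 7. Rps19bp1, which encodes a binding protein of Rps19 and not a ribosomal protein, carried H3.3 in 14.

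Among the paralogs with little or no H3.3, Rpl10l had no H3.3 or H3K36me3 peak in any library and an H3K4me3 peak in iPSCs alone, with a density of 4.67. Rpl10l and Rpl39l are known from testis. Rpl39l had H3.3 in 3 libraries, D0 with 1.46, MEF with 1.21 and D4 with 7.46. Rps4y2 had no H3.3 in 16 libraries but H3K4me3 in 6 of 7, between 9.55 and 25.8. Rpl3l, the striated muscle counterpart of Rpl3, reached at most 4.08 for H3.3 (D4) and 8.97 for H3K4me3 (D6T-), and had no H3K36me3 in any library.

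**Figure D5:**
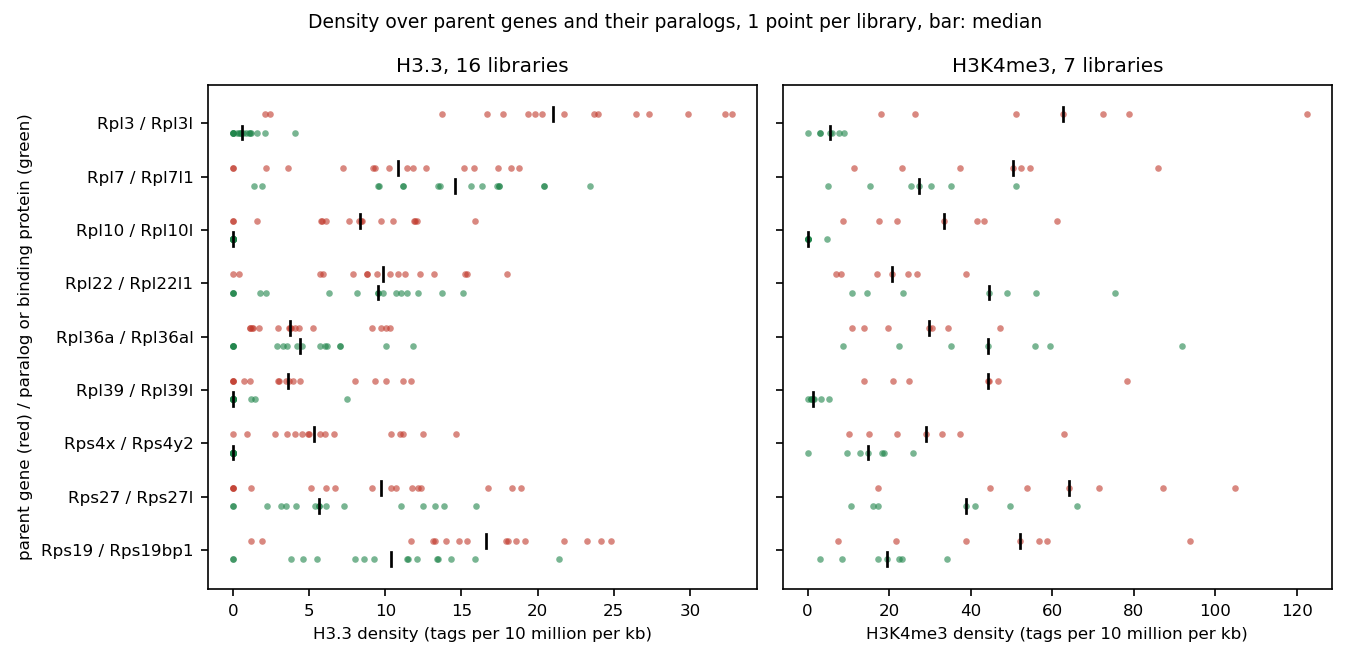
H3.3 density in 16 libraries (left) and H3K4me3 density in 7 libraries (right), in tags per 10 M per kb on the x axis, for each parent gene (red) and its paralog or, for Rps19bp1, binding protein (green); each point is 1 library, 0 means no peak, and black bars are medians. Rpl3l, Rpl10l, Rpl39l and Rps4y2 lie near 0 for H3.3, while Rpl7l1 lies at or above Rpl7 in most libraries.

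Of the 54 retrocopies, 31 had no peak of any mark in any of the 30 libraries. Their H3.3 share ranged from 0% in cKit- to 20.4% in D4, with a median of 7.41%, and 48 of them had no H3K4me3 peak in any library. The most often marked was Rpl30-ps6 (chr1:88370234-88370581), with H3.3 in 14 libraries, a highest density of 18.5, and H3K4me3 in 5. It was followed by Rpl7a-ps8 with H3.3 in 11 libraries and Rps26-ps1 in 8. The window of Rps26-ps1 also holds another protein-coding gene, while those of Rpl30-ps6 and Rpl7a-ps8 do not. A peak of any mark was found for 7 of the 10 retrocopies whose window holds another gene and for 16 of the 44 others. A peak touched the copy itself, and not only its 1 kb flanks, in 13 of 54. A median of only 27.9% of the 32-base words inside a retrocopy were unique in the genome and 42 of 54 were below 50% (few reads can be placed in such sequence after multi-locus reads are removed). Of the 5 retrocopies with at least 80% unique words, 3 had a peak and 2 (Rpl28-ps4 and Rps19-ps13) had none.

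Introns of ribosomal protein genes are known hosts of small nucleolar RNAs, which guide the modification of ribosomal RNA. The annotation placed 55 snoRNAs inside 29 of 75 core genes (38.7%), against 1.20% of all genes and 0 of 76 mitochondrial ribosomal protein genes. Rpl4 held 5, and Rpl7a and Rpl13a held 4 each. Median H3.3 density was 14.4 in the 29 hosts and 12.6 in the other 46 core genes, and the spread between genes was wider than this difference.

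A list of 34 other genes of translation and ribosome production was read alongside, among them ribosomal proteins whose symbols the rule does not match, such as Rpsa and Fau. From D0 to iPSCs their median log2 H3.3 ratio was -0.26 (33 genes), with 4 higher and 3 lower by 2-fold or more. Of the 11705 protein-coding genes with a peak in both, 1898 were higher and 4142 lower by 2-fold or more. For H3K4me3 the median of the list was -0.75 with 9 of 34 lower by 2-fold or more, against 10530 of 14770 of all genes. For H3K36me3 it was -2.13 with 26 of 29, near the share of all genes (6366 of 7082). Elongation factor Eef2 had an H3.3 density of 23.4 in D0 and 13.5 in iPSCs, Rpsa 16.5 and 14.8, and Fau 12.9 and 11.8. Among subunits of RNA polymerase I, which transcribes ribosomal RNA, Polr1a had 2.09 and 2.21, Polr1b 1.15 and 2.88 and Polr1c 10.6 and 8.39. Polr1a and Polr1b are long genes (70.3 and 25.6 kb), while Polr1c spans 4.13 kb.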

How the data were processed

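Peak lists of 30 ChIP-Seq libraries were analysed, and the 16 input samples were not analysed here. Per the study's methods, reads were mapped to mm9 with STAR, reads with more than 2 mismatches or several loci were removed, and HOMER called peaks in histone style per library against input (versions not given in the sources used here). As deposited, each peak has a signal score, its tag count scaled by the authors to 10 M tags. It also has a ratio to input in the deposited lists (at least 2 for H3.3 and 4 for the other marks), and the deposited Poisson p-value had a limit of 0.0001. In the deposited lists the signal of input tags was likewise scaled, in 7 lists with the ChIP tags scaled to the input instead.

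Here peak scores were prorated by their overlap with each gene window (gene span and 1 kb on each side) and divided by window length, using Python 3.11.15 with numpy 2.4.6 and pandas 2.3.3. The sums were tested on simulated data. The annotation (GENCODE vM1) is on the build of the files. Total tags ranged from 13.2 to 91.8 M. Each group had 1 library, so changes are given as fold with a limit of 2 and without a test, and 95% Wilson intervals cover counting error only. The exception is the route difference, tested by exact sign flips over days. Genes were named by role, as parents of paralogs, and by value (highest density, fewest libraries with H3.3, widest H3K4me3 and largest change from D0 to iPSCs). Results for some genes are not reported here. The members and lists were chosen with earlier results of these data known. Alternatives were other windows, overlap rules, peak strengths, peak numbers, gene subsets and libraries.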

Additional observations from a re-analysis of the deposited data

How the results depend on the processing

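Of 128 values recomputed under an alternative, 102 were counted as unchanged, 26 moved beyond their interval and 0 were counted as reversed. The route differences have no interval and were all counted as unchanged. With peaks at least 4 times over input they moved from -1.99 to -8.51 points in members and from 0 to -12.7 in core genes. The MEF to D4 change took the other sign when a peak midpoint was required, as given below, and was counted as moved. Restricting the 138 members to the 75 core genes moved the median share with an H3.3 peak from 61.6 to 100%, with H3K4me3 from 62.3 to 100%, with H3K36me3 from 51.4 to 90.7% and with H3.3 over the start site from 33.7 to 53.3%. With a peak midpoint required inside the window, the H3.3 share was 45.7% of members and 78% of core genes, the start site share 6.52 and 9.33%, the MEF to D4 change -9.42 and -24 percentage points (6.52 and 1.33 with any overlap), and the H3K36me3 share of core genes 77.3%. This setting drops long peaks centred outside the window. When peaks had to exceed input at least 4 times (not applied to transdifferentiation), the H3.3 share was 50.4% of members and 85.3% of core genes, the start site share 22.8 and 38.7%, and the D0 to iPSCs log2 ratio -2.56 in both sets, on 11 core genes. The H3.3 ratio was -0.57 in members and -0.60 in core genes with the gene span alone, and -0.67 and -0.71 with whole peak scores. The gene span alone gave a MEF to D4 change of 9.33 points in core genes. With equal numbers of top peaks the H3K36me3 share was 42.8% of members and 76% of core genes. For core genes it was 95.8% without windows that hold another gene and 97.3% without D6T- and D12S+. The settings for core genes were chosen after seeing the data. H3K4me3 ratios from D0 to iPSCs kept the core genes above all genes in each setting, by 0.81 to 0.86 on the log2 scale. No paired analysis was possible because each group had 1 library with no replicate to block on, and the routes were paired by day alone. The low share of tags in peaks limits what can be said of cKit+, cKit-, D12S+ and D16S+.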
